A study of Homo sapiens with 4 samples.

Results

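The SLC25A genes encode the mitochondrial carrier family, and 48 of the 26364 listed genes carry a symbol made of SLC25A and a number, which was the rule for membership. The question was how the expression of these carriers differed when MYCN was knocked down in BE(2)C, a human neuroblastoma line with amplified MYCN. RNA-seq was available for 2 Ctrl samples, which received a non-targeting siRNA and are labelled wild type, and for 2 MYCN KD samples, which received 1 siRNA against MYCN. All cells carried the MYCN amplification and were incubated with 80 nM siRNA (per the labels) and a lipid transfection reagent for 6 h, and RNA was taken on the next day. The labels number the replicates but do not say that they came from separate transfections, so that p-values measure the spread between these samples.

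Mitochondrial carriers are small proteins of the inner mitochondrial membrane that exchange metabolites between the cytosol and the matrix. Most swap one solute for another, such as ADP for ATP, ornithine for citrulline or citrate for malate, and they link respiration, amino acid metabolism, heme and iron metabolism and the supply of cofactors to the rest of the cell. A few members lie in other membranes, such as SLC25A17 of peroxisomes and SLC25A46 of the outer mitochondrial membrane. MYC proteins bind the E-box CACGTG and are known to act on many genes of growth and metabolism.

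Expression is given as RPKM, the reads of a gene scaled to its length and to the sequencing depth, which allows levels of different genes to be compared within a sample. The totals behind the values were between 29055819 and 34142988 reads per sample. MYCN itself fell from 1067.9 and 1073.0 RPKM in Ctrl to 720.2 and 718.0 RPKM in MYCN KD, to 67.2% of the Ctrl mean, with a log2 fold change of -0.57 (standard error 0.0286, limma adjusted p = 0.00361). All 8 noradrenergic neuroblastoma markers, such as HAND2 and DBH, were expressed, with means between 28.5 and 1940.3 RPKM. Of these markers 5 rose. The summed level of 8 markers of other cell types was 6.18 and 7.32 RPKM in Ctrl against 13.4 and 11.4 RPKM in MYCN KD. Among them the fibroblast markers COL1A1 and DCN rose. Some epithelial and endothelial markers, with means below 1 RPKM, also had both MYCN KD values above both Ctrl values. The leukocyte markers PTPRC and CD3E were at or below 0.0227 RPKM in each sample. What part cells with any of these markers have in the carrier values was not tested.

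Differences were tested with limma on log2(RPKM + 1) over 11411 genes, those whose mean reached 1 RPKM. Log2 fold changes below are on that scale, MYCN KD against Ctrl, so that they understate changes of genes with low RPKM, and adjusted p-values are Benjamini-Hochberg values over all genes tested. Of the 48 carriers, 34 passed the filter. At an adjusted p under 0.05, 13 of the 34 fell and 6 rose in MYCN KD, and 15 did not pass. Among all tested genes 22.8% fell and 25.3% rose, against 38.2% and 17.6% of the tested carriers. The median log2 fold change of the tested carriers was -0.20, with quartiles of -0.50 and 0.13, beside 0.03 over all genes tested. Both MYCN KD values lay below both Ctrl values in 19 tested carriers and above them in 11, and they overlapped in 4. Groups failed to overlap in 76.2% of all tested genes, so that a lack of overlap by itself is common here.

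**Figure D1:**
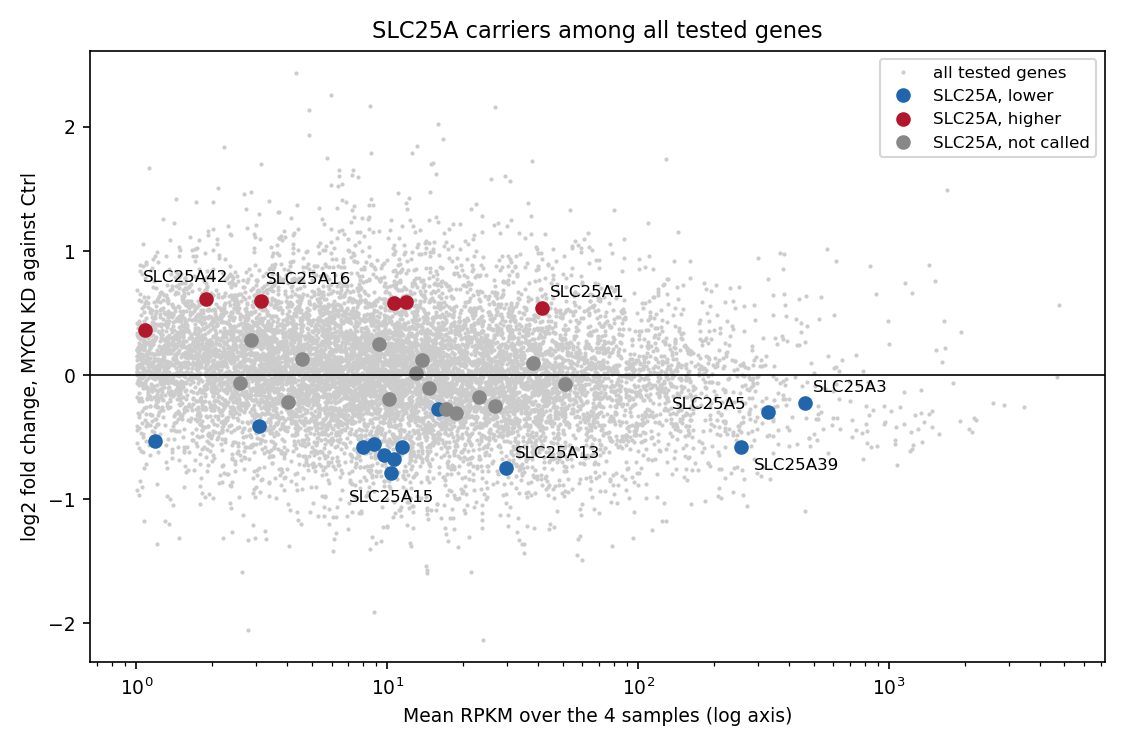
The mean RPKM over the 4 samples (log axis) is plotted against the log2 fold change (MYCN KD against Ctrl) for all 11411 tested genes (grey dots) and the 34 tested carriers (large points, coloured by the limma call). The 13 carriers that fell include SLC25A3, SLC25A5 and SLC25A39 at the right, and the 6 that rose lie at or below a mean of 41.3 RPKM.

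Among the carriers with the largest falls on the log2(RPKM + 1) scale were SLC25A15, SLC25A13, SLC25A33, SLC25A32, SLC25A26, SLC25A39 and SLC25A37, which transport ornithine, aspartate and glutamate, pyrimidine nucleotides, folate, S-adenosylmethionine, glutathione and iron, respectively. The 6 that rose were SLC25A42, SLC25A16, SLC25A29, SLC25A20, SLC25A1 and SLC25A35. SLC25A30, SLC25A43, SLC25A5, SLC25A38 and SLC25A3 also fell. By ratio SLC25A30, at a low level, fell furthest, to 49.7% of the Ctrl mean against 54.8% for SLC25A15.

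**Figure D2:**
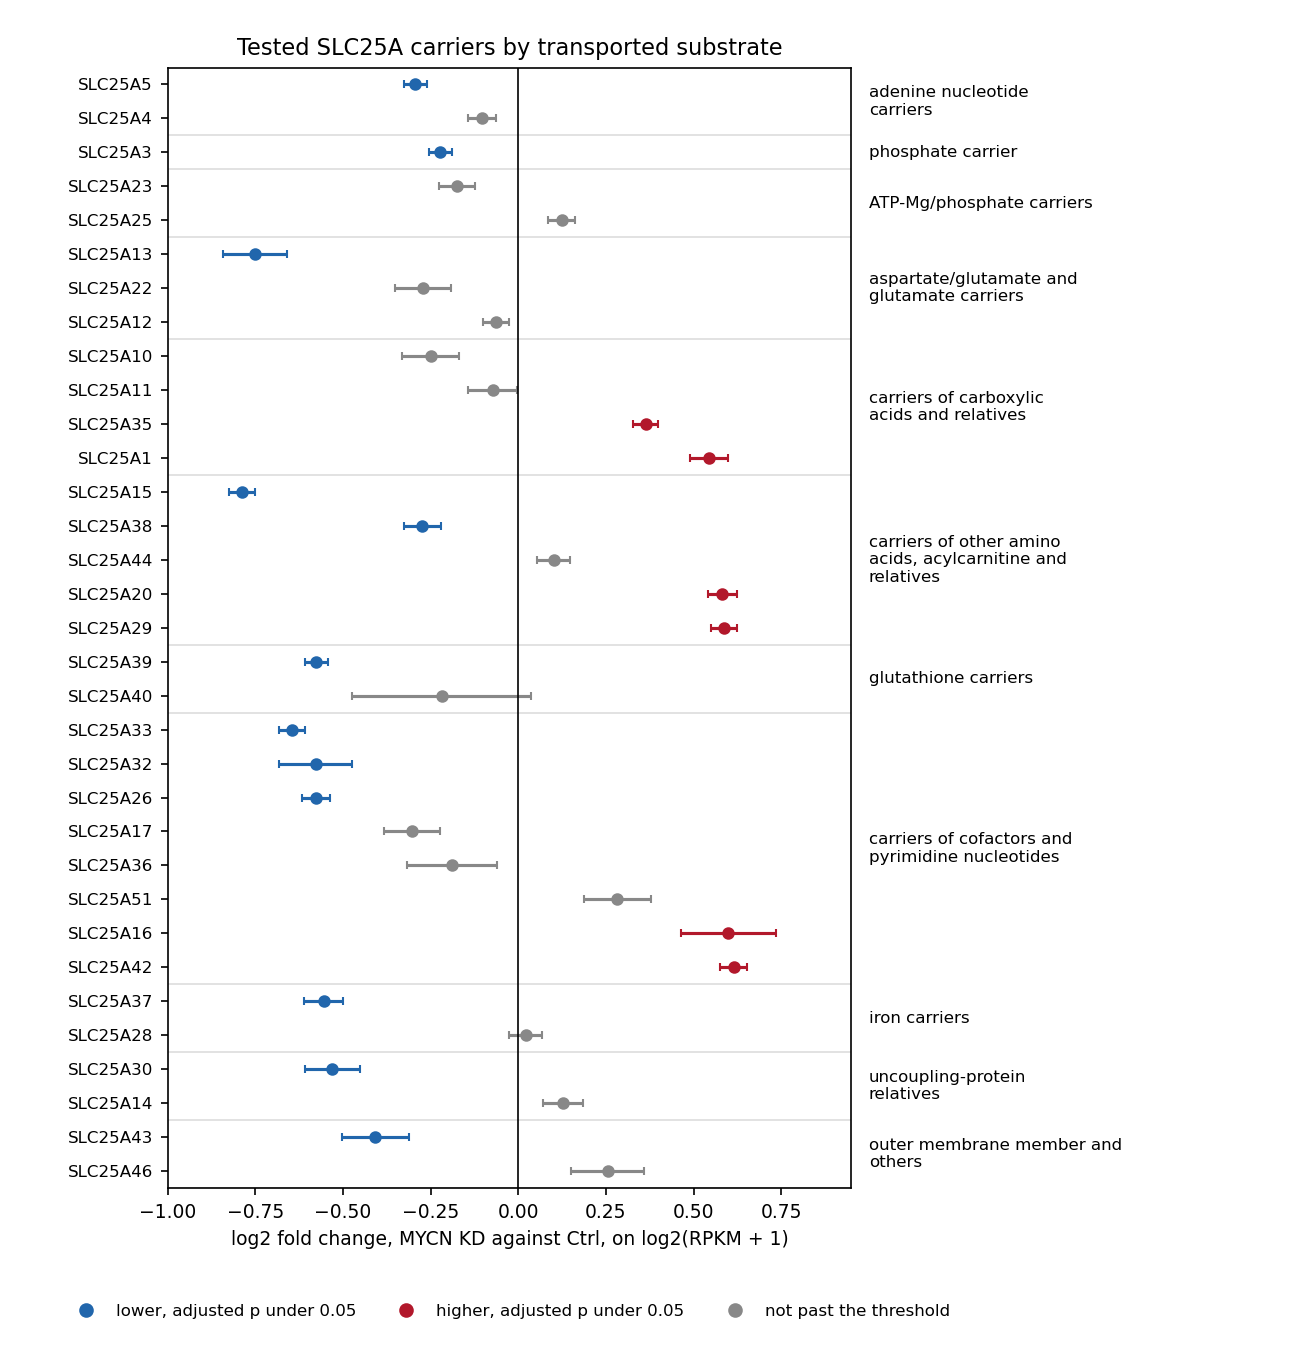
Log2 fold changes (x axis, MYCN KD against Ctrl on log2(RPKM + 1)) of 33 of the 34 tested carriers, grouped by what they transport; points are limma estimates, bars are 1 standard error on either side, and colours give the call. SLC25A15 (-0.79) and SLC25A42 (0.61) mark the ends, and the ATP-Mg/phosphate carriers hold no coloured point.

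Promoter sequences are shown for the carriers that fell and held the binding motif of MYC proteins, and for SLC25A15, which fell without it. They were picked by call and motif, so that they do not show how common the motif is. RefSeq promoter windows of 300 bases (250 before to 50 after each start, GRCh38.p14) matched 40 of the 48 carriers. The motif CACGTG, which reads the same on both strands, was found in a window of 9 of these 40 genes (22.5%), against 8.77% of all 27305 genes in the table. Among tested genes with a window, 8 of 28 carriers (28.6%) held it, against 13.2% of all 8489. Among the carriers that fell, 4 of 9 with a window held it, namely SLC25A13, SLC25A26, SLC25A33 and SLC25A38. None (0) of the 4 with a window among those that rose did, and 4 of 15 among those that did not pass did (SLC25A22, SLC25A36, SLC25A46 and SLC25A51). The ninth was SLC25A31, which was listed at 0. Over all tested genes the motif was in 18.8% of those that fell, 10.5% of those that rose and 12.03% of the others. The related form CACGCG, searched on both strands, was in 12 of the 51 windows of carriers (23.5%) and in 11.4% of all 35116 windows. A match is a description of these letters and not of binding.

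Each line gives 100 bases before the start, 5′ to 3′, with CACGTG in capitals. The stretch of SLC25A33 is chr1:9539365-9539464 (plus strand), of SLC25A26 chr3:66220901-66221000 (plus), of SLC25A38 chr3:39383270-39383369 (plus), of SLC25A13 chr7:96322199-96322298 (minus) and of SLC25A15 chr13:40789511-40789610 (plus), all on GRCh38.p14. The first 3 and the last end at the base before the start, and that of SLC25A13 ends 101 bases before it. SLC25A26 has 3 windows in the table and only the one shown holds the motif, 2 times. SLC25A15, the carrier with the largest fall on the log2(RPKM + 1) scale, has no CACGTG in its window and is shown for comparison.
SLC25A33: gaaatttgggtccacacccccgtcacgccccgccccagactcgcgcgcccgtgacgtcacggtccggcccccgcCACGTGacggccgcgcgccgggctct
SLC25A26: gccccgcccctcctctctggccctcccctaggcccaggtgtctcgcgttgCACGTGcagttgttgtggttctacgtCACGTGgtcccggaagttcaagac
SLC25A38: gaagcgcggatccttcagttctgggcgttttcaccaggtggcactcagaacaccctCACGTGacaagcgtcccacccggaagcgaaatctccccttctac
SLC25A13: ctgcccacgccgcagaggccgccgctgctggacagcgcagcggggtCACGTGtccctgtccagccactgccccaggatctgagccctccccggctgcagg
SLC25A15: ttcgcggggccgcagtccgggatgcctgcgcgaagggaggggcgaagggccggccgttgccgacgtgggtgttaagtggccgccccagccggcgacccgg

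The carriers of adenine nucleotides and phosphate feed ATP synthase and export its product. SLC25A3 and SLC25A5 among them were the most abundant carriers of the family by mean RPKM, SLC25A6 aside, whose level was not measured (below). SLC25A3, the carrier that brings phosphate into the matrix, lies on chromosome 12 from 98987369 to 99000157 (hg19, plus strand, 8 exons in its canonical transcript). It had 502.2 and 493.1 RPKM in Ctrl against 422.4 and 430.5 RPKM in MYCN KD, so that the MYCN KD mean was 85.7% of Ctrl. Its log2 fold change was -0.22 (standard error 0.0319, limma adjusted p = 0.0143). When any single sample was left out, SLC25A3 did not pass (adjusted p between 0.0762 and 0.127). SLC25A5, the ADP/ATP carrier of proliferating cells, lies on chromosome X from 118602385 to 118605359 and has 4 exons. It had 357.3 and 366.3 RPKM in Ctrl against 298.4 and 291.7 RPKM in MYCN KD, with a log2 fold change of -0.29 (standard error 0.0340, limma adjusted p = 0.00956). Both falls were larger than the gap between replicates of a group.

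SLC25A4, the ADP/ATP carrier of heart and muscle, was far less abundant than SLC25A5, at 15.02 and 15.4 RPKM in Ctrl against 14.3 and 13.9 RPKM in MYCN KD. The MYCN KD values were both below the Ctrl values, but the difference did not pass (log2 fold change -0.10, standard error 0.0397, limma adjusted p = 0.113). Its share of the summed RPKM of the ADP/ATP carriers was 4.03% and 4.04% in Ctrl against 4.56% and 4.56% in MYCN KD. SLC25A31, the ADP/ATP carrier of the male germ line, was listed at 0 in each sample. SLC25A6, a widely expressed ADP/ATP carrier, was listed at 0.0888 and 0.211 RPKM in Ctrl and at 0.499 and 0.218 RPKM in MYCN KD. SLC25A6 lies in the pseudoautosomal region, whose sequence is present on both sex chromosomes of hg19. All 15 coding genes listed from its part on the short arm were below 1 RPKM in each sample, so that the value of SLC25A6 is not taken as a level. The share of SLC25A4 uses this listed value, so that it does not cover the real part of SLC25A6 in the class. For SLC25A5, GENCODE names 9 pseudogenes and for SLC25A3 it names 3, and how the counting treated reads shared with these copies is not given in the sources used here.

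SLC25A39, which imports glutathione into mitochondria, had the largest fall among the abundant carriers. It lies on chromosome 17 from 42396993 to 42402238 (minus strand, 12 exons). Its level was 310.9 and 304.8 RPKM in Ctrl against 204.0 and 208.4 RPKM in MYCN KD, with a log2 fold change of -0.58 (standard error 0.0328, limma adjusted p = 0.00395). Its paralog SLC25A40 had 3.50 and 5.32 RPKM in Ctrl against 4.37 and 2.92 RPKM in MYCN KD, so that the groups overlapped (log2 fold change -0.22, standard error 0.256, limma adjusted p = 0.518). SLC25A40 passed as lower without Ctrl replicate 1 (-0.46, adjusted p = 0.00587) or without MYCN KD replicate 1 (-0.44, adjusted p = 0.00991), and its log2 fold change was 0.03 without Ctrl replicate 2. SLC25A39 made up between 97.9% and 98.9% of the sum of both in each sample.

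SLC25A3, SLC25A5 and SLC25A39 together held 72.3% and 72.2% of the summed RPKM of all carriers in Ctrl, and 69.1% and 69.1% in MYCN KD. The sums in this paragraph take SLC25A6 as listed, so that they do not cover its level. The summed RPKM of the family was 1619.6 and 1612.5 in Ctrl against 1338.0 and 1347.1 in MYCN KD. Without those 3 genes it was 449.2 and 448.3 in Ctrl against 413.2 and 416.6 in MYCN KD. In each of these sums both MYCN KD values lay below the Ctrl values. The summed RPKM of all genes was lower too, at 435126 and 426148 in Ctrl against 408304 and 417284 in MYCN KD. Of that sum the family held 0.372% and 0.378% in Ctrl against 0.328% and 0.323% in MYCN KD. An exact permutation test of 2 samples against 2 cannot give a two-sided p below 0.3333, which each carrier quantity of this paragraph reached.

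**Figure D3:**
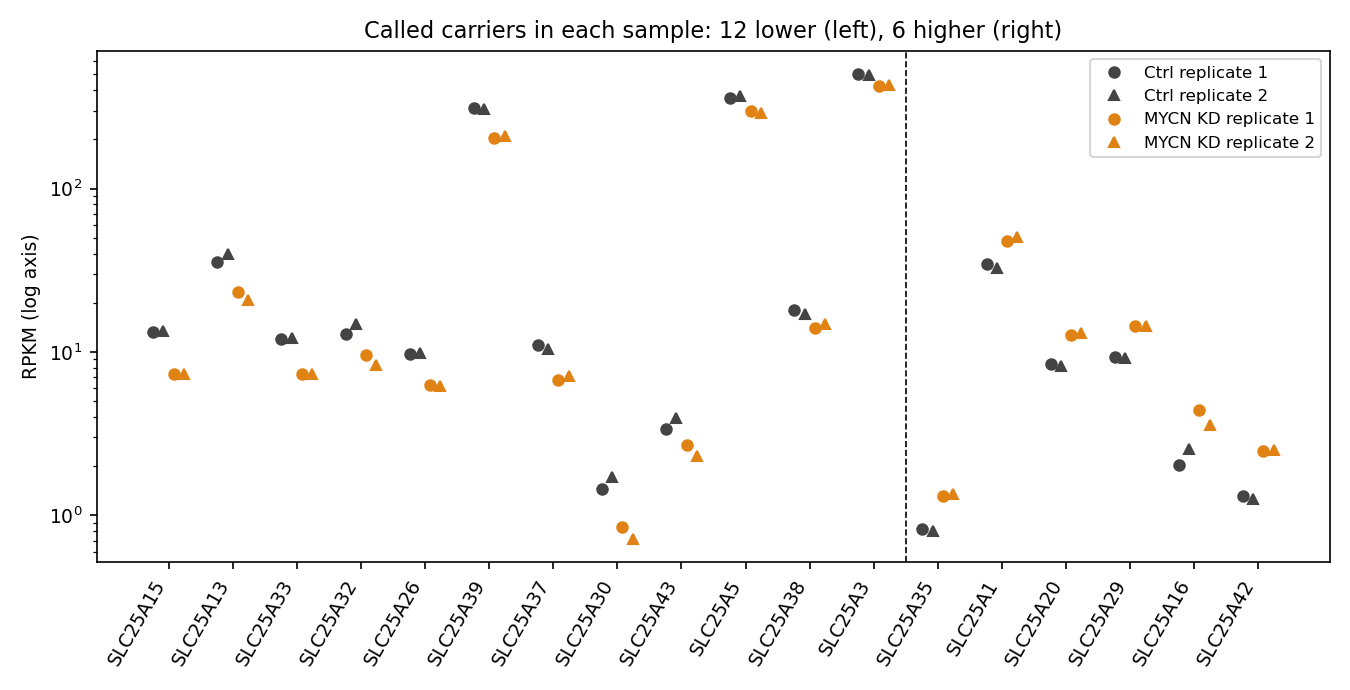
RPKM (log axis) of 18 of the 19 carriers past the threshold in each of the 4 samples; grey marks are Ctrl, orange marks are MYCN KD, circles are replicate 1 and triangles replicate 2. The 12 carriers left of the dashed line fell and the 6 right of it rose, and in each of them both MYCN KD values lie on one side of both Ctrl values.

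The amino acid carriers SLC25A15 and SLC25A13 had the largest falls of the family on the log2(RPKM + 1) scale. SLC25A15 exchanges ornithine for citrulline in the urea cycle and lies on chromosome 13 from 41363548 to 41386596. Its level was 13.3 and 13.4 RPKM in Ctrl against 7.33 and 7.32 RPKM in MYCN KD, which is 54.8% of the Ctrl mean (log2 fold change -0.79, standard error 0.0371, limma adjusted p = 0.00359). GENCODE names 5 pseudogenes of SLC25A15. Its paralog SLC25A2 was listed with at most 0.0240 RPKM. SLC25A13, or citrin, exchanges aspartate for glutamate in the malate-aspartate shuttle and lies on chromosome 7 from 95749532 to 95951459. It had 35.5 and 39.9 RPKM in Ctrl against 23.2 and 20.8 RPKM in MYCN KD (log2 fold change -0.75, standard error 0.0912, limma adjusted p = 0.0104).

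SLC25A12, the other aspartate/glutamate carrier, had 2.67 and 2.64 RPKM in Ctrl against 2.49 and 2.51 RPKM in MYCN KD, and its log2 fold change of -0.06 (standard error 0.0374) did not pass (limma adjusted p = 0.236). SLC25A13 accordingly held 93.0% and 93.8% of the sum of both in Ctrl and 90.3% and 89.2% in MYCN KD, and the exact permutation test of this share gave the lowest p it can, 0.3333. SLC25A22, a glutamate carrier, had 19.8 and 17.9 RPKM in Ctrl against 14.7 and 16.2 RPKM in MYCN KD (log2 fold change -0.27, standard error 0.0790, limma adjusted p = 0.0629). It passed without Ctrl replicate 2 and without MYCN KD replicate 2 (adjusted p = 0.0304 and 0.0415). Its relative SLC25A18 was between 0.362 and 0.395 RPKM, below the filter.

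SLC25A29, a carrier of basic amino acids, changed in the opposite direction to SLC25A15. It lies on chromosome 14 from 100757453 to 100772884 and had 9.29 and 9.23 RPKM in Ctrl against 14.4 and 14.5 RPKM in MYCN KD, 1.56-fold higher (log2 fold change 0.59, standard error 0.0368, limma adjusted p = 0.00422). SLC25A20, which exchanges acylcarnitines for carnitine in fatty acid oxidation, lies on chromosome 3 from 48894359 to 48936337. It rose from 8.39 and 8.18 RPKM to 12.8 and 13.1 RPKM (log2 fold change 0.58, standard error 0.0406, limma adjusted p = 0.00463). SLC25A38, a glycine carrier needed for heme synthesis, fell by 0.27 on the log2 scale (limma adjusted p = 0.0268), and it did not pass when any single sample was left out (adjusted p between 0.0511 and 0.170). SLC25A44, which carries branched-chain amino acids, had 37.7 and 36.0 RPKM in Ctrl against 38.7 and 40.5 RPKM in MYCN KD and did not pass (limma adjusted p = 0.165), though it did as higher when samples were scaled to an equal summed RPKM (0.16, adjusted p = 0.0352).

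Of the carriers of carboxylic acids and their relatives, 2 rose and none (0) fell among 4 tested. SLC25A1, which exports citrate for the synthesis of fatty acids and sterols, lies on chromosome 22 from 19163094 to 19166252 (minus strand, 9 exons). Its level was 34.4 and 32.4 RPKM in Ctrl against 47.8 and 50.6 RPKM in MYCN KD, 1.47-fold higher (log2 fold change 0.54, standard error 0.0537, limma adjusted p = 0.00733). It was the most abundant carrier among the 6 that rose. SLC25A35, whose substrate is not assigned here, had 0.831 and 0.808 RPKM in Ctrl against 1.32 and 1.36 RPKM in MYCN KD (log2 fold change 0.36, standard error 0.0356, limma adjusted p = 0.00725). Its exons share 1134 bases with RANGRF on the opposite strand, which had 3.77 and 3.59 RPKM in Ctrl against 2.36 and 2.47 RPKM in MYCN KD. Whether the counting used strand is not given in the sources used here. SLC25A10, the dicarboxylate carrier, had 30.8 and 27.8 RPKM in Ctrl against 23.3 and 25.7 RPKM in MYCN KD (limma adjusted p = 0.0787). It passed without Ctrl replicate 2 and without MYCN KD replicate 2 (adjusted p = 0.0314 and 0.0427). SLC25A11, the oxoglutarate/malate carrier, had overlapping groups (log2 fold change -0.07).

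The carriers of cofactors and pyrimidine nucleotides were split, with 4 that fell, 2 that rose and 3 that did not pass. SLC25A26, the S-adenosylmethionine carrier, had 9.74 and 9.91 RPKM in Ctrl against 6.30 and 6.21 RPKM in MYCN KD (log2 fold change -0.58, standard error 0.0394, limma adjusted p = 0.00455). It shares 2669 exonic bases with LRIG1 on the opposite strand, which was between 0.390 and 0.486 RPKM in the 4 samples. SLC25A32, the mitochondrial folate carrier, had 12.9 and 14.8 RPKM in Ctrl against 9.55 and 8.35 RPKM in MYCN KD (log2 fold change -0.58, standard error 0.104, limma adjusted p = 0.0226). Its 406 shared exonic bases belong to DCAF13, which had 17.2 and 18.2 RPKM in Ctrl against 11.5 and 10.9 RPKM in MYCN KD, so that both members of this opposite-strand pair were lower.

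SLC25A33 and SLC25A36 both carry pyrimidine nucleotides. SLC25A33 had 12.1 RPKM in both Ctrl samples and 7.37 RPKM in both MYCN KD samples (log2 fold change -0.65, standard error 0.0373, limma adjusted p = 0.00401). SLC25A36 had 9.95 and 11.9 RPKM in Ctrl against 10.2 and 8.64 RPKM in MYCN KD, with overlapping groups (log2 fold change -0.19, standard error 0.128, limma adjusted p = 0.288). The share of SLC25A33 in their sum was 54.8% and 50.5% in Ctrl against 41.8% and 46.0% in MYCN KD, a difference of -8.73 percentage points with an exact permutation p of 0.3333.

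SLC25A42 and SLC25A16, both linked to coenzyme A transport, had the largest rises on the log2(RPKM + 1) scale, at low levels. SLC25A42 had 1.31 and 1.26 RPKM in Ctrl against 2.46 and 2.53 RPKM in MYCN KD, 1.94-fold higher (log2 fold change 0.61, standard error 0.0388, limma adjusted p = 0.00425). SLC25A16 had 2.03 and 2.56 RPKM in Ctrl against 4.44 and 3.55 RPKM in MYCN KD, 1.74-fold higher (log2 fold change 0.60, standard error 0.136, limma adjusted p = 0.0369). Without a filter on low values the adjusted p of SLC25A16 was 0.0616. SLC25A51, the NAD carrier, had 2.30 and 2.69 RPKM in Ctrl against 3.50 and 2.9997 RPKM in MYCN KD and did not pass (limma adjusted p = 0.0885). SLC25A17, the peroxisomal cofactor carrier, had 19.7 and 21.8 RPKM in Ctrl against 17.4 and 15.9 RPKM in MYCN KD and lay just outside the threshold (limma adjusted p = 0.0504). SLC25A17 passed without Ctrl replicate 1 and without MYCN KD replicate 1 (adjusted p = 0.0161 and 0.0216), and SLC25A51 without Ctrl replicate 2 and without MYCN KD replicate 2 (adjusted p = 0.0308 and 0.0285).

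The iron carriers, mitoferrin-1 and mitoferrin-2, supply heme and iron-sulfur cluster synthesis. SLC25A37, or mitoferrin-1, had 11.0 and 10.4 RPKM in Ctrl against 6.77 and 7.17 RPKM in MYCN KD (log2 fold change -0.56, standard error 0.0546, limma adjusted p = 0.00729). SLC25A28, or mitoferrin-2, had 13.2 and 12.6 RPKM in Ctrl against 12.8 and 13.4 RPKM in MYCN KD, with overlapping groups (log2 fold change 0.02, standard error 0.0478, limma adjusted p = 0.739). The share of SLC25A37 in their sum was 45.5% and 45.2% in Ctrl against 34.5% and 34.9% in MYCN KD. The difference of -10.6 percentage points was many times the gap between replicates, with an exact permutation p of 0.3333, the lowest this design allows.

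The ATP-Mg/phosphate carriers set the pool of adenine nucleotides in the matrix, and most are regulated by calcium. None of the tested members of this class passed the threshold in the limma fit described above. SLC25A23 had 25.3 and 23.9 RPKM in Ctrl against 21.1 and 22.3 RPKM in MYCN KD (log2 fold change -0.17, standard error 0.0527, limma adjusted p = 0.0677). SLC25A25 had 13.002 and 13.2 RPKM in Ctrl against 14.5 and 14.3 RPKM in MYCN KD (log2 fold change 0.12, standard error 0.0378, limma adjusted p = 0.0699). When samples were scaled to an equal summed RPKM, SLC25A25 passed as higher (0.18, adjusted p = 0.0469). Each had groups that did not overlap, in opposite directions, and the share of SLC25A25 in the sum of the class was 33.7% and 35.4% in Ctrl against 40.2% and 38.5% in MYCN KD. SLC25A25 shares 665 exonic bases with SLC25A25-AS1, which was at 1.02 and 1.10 RPKM in Ctrl against 0.600 and 0.564 RPKM in MYCN KD. SLC25A24 was below the filter, at 0.0676 and 0.0882 RPKM in Ctrl against 0.353 and 0.257 RPKM in MYCN KD, which correspond to 9, 11, 40 and 31 reads. In the fit without a filter its limma adjusted p was 0.0301.

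**Figure D4:**
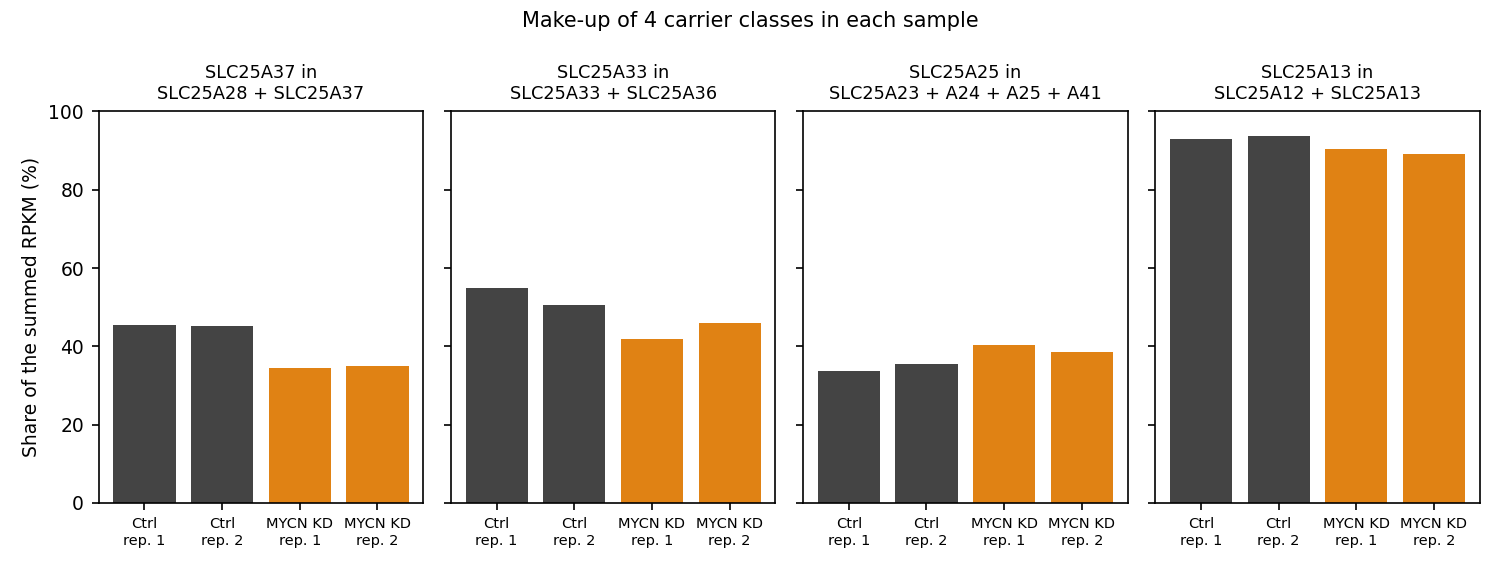
Share (%) of 1 carrier in the summed RPKM of its class in each sample, for iron carriers, pyrimidine nucleotide carriers, ATP-Mg/phosphate carriers and aspartate/glutamate carriers; bars are single samples, grey for Ctrl and orange for MYCN KD. The share of SLC25A37 is 45.5% and 45.2% in Ctrl against 34.5% and 34.9% in MYCN KD, and in each panel both MYCN KD bars lie on one side of both Ctrl bars.

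SLC25A30, a relative of the uncoupling proteins, was near the filter at 1.45 and 1.72 RPKM in Ctrl against 0.854 and 0.720 RPKM in MYCN KD, 49.7% of the Ctrl mean (log2 fold change -0.53, limma adjusted p = 0.0152). SLC25A14, another such relative, had 4.17 and 4.47 RPKM in Ctrl against 4.96 and 4.65 RPKM in MYCN KD and did not pass (log2 fold change 0.13, limma adjusted p = 0.150). SLC25A43, whose substrate is not assigned here, fell by 0.41 on the log2 scale (limma adjusted p = 0.0399). Without Ctrl replicate 2 or without MYCN KD replicate 2 SLC25A43 did not pass, with an adjusted p of 0.0592 and 0.0584. SLC25A46, of the outer membrane, had 7.76 and 8.94 RPKM in Ctrl against 10.8 and 9.46 RPKM in MYCN KD and did not pass (limma adjusted p = 0.126), though it did without Ctrl replicate 2 (adjusted p = 0.0404).

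The remaining carriers were below the filter. SLC25A34, SLC25A45 and SLC25A53 lay between 0.295 and 0.829 RPKM, and SLC25A41 between 0.0888 and 0.208 RPKM. SLC25A21, SLC25A27, SLC25A47 and SLC25A52 had at most 2 reads and 0.0397 RPKM in any sample, and SLC25A48 was listed at 0. Just inside the filter were SLC25A35 with a mean of 1.08 RPKM and SLC25A30 with 1.19 RPKM, and just outside it were SLC25A45 with 0.707 RPKM and SLC25A53 with 0.589 RPKM.

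Genes that work beside the carriers were described from lists of their own. Among the family members with other symbols, none (0) of 3 tested genes passed: UCP2 had a log2 fold change of 0.07, MTCH1 of 0.09 and MTCH2 of -0.05 (limma adjusted p of 0.449, 0.176 and 0.503). Of 18 tested inner membrane transporters outside the family, 5 fell and 4 rose. The largest falls were those of SFXN4 (-0.79) and SFXN2 (-0.57), and the largest rises those of SFXN5 (1.16) and SFXN3 (0.69), all sideroflexins, a family that includes the mitochondrial serine transporter SFXN1. Of the 9 genes of the TIM22 route, which inserts carriers into the inner membrane, 4 fell and none (0) rose, with a median log2 fold change of -0.39. TIMM13 (-0.80) and TIMM9 (-0.52), chaperones of the intermembrane space, fell most.

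Of 9 tested enzymes of the malate-aspartate shuttle and of citrate metabolism, 6 fell and none (0) rose, with a median log2 fold change of -0.26. GOT2, the mitochondrial aspartate aminotransferase that works with SLC25A13, fell by 0.61 on the log2 scale (limma adjusted p = 0.00422), and the malic enzyme ME2 fell by 0.56 (limma adjusted p = 0.0250). ACLY, which cleaves the citrate that SLC25A1 exports, fell by 0.15 on the log2 scale (limma adjusted p = 0.0270), whereas SLC25A1 rose. Among the outer membrane channels VDAC1 fell by 0.39 on the log2 scale, and VDAC2 and VDAC3 did not pass. These counts stand beside the same shares of all tested genes, 22.8% lower and 25.3% higher.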

How the data were processed

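RNA was sequenced from 4 BE(2)C samples, 2 of Ctrl and 2 of MYCN KD, grouped by sample title. Reads were mapped to hg19 with HISAT2 2.1.0 and counted with featureCounts on RefSeq genes; DESeq2 modelled the counts, and RUVSeq was applied against unwanted variation, whose variant and number of factors are not given in the sources used here. The values that the authors deposited are RPKM, 1 file per sample, so that the replicate spread was measured after any such adjustment. The totals behind the RPKM values were recovered from small RNA genes of known length (reads within 0.01 of a whole number in 92.9% to 93.9% of them). Whole reads followed for 19902 of 19908 genes above 0. The paper calculated RPKM from RUVSeq-normalized counts, so that these reads and totals may be adjusted counts and not raw reads. The limma voom fit used the same counts.

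Log2(RPKM + 1) was analysed with limma 3.58.1 in R 4.3.3 (eBayes with a trend, no block, mean RPKM of at least 1, Benjamini-Hochberg adjustment, threshold 0.05). The fit was also run on simulated independent samples as a check of the code. Samples here deviated along a common pattern, so that this run is no support for the calls. A share within a class was compared with the two-sided exact permutation test (scipy 1.17.1; Python 3.11.15, pandas 2.3.3, numpy 2.4.6, matplotlib 3.10.9). Alternatives were another pseudocount (0.1), no filter or a mean RPKM of at least 5, rescaling to the same summed RPKM, quantile normalization, eBayes without a trend, the replicate block, limma voom on recovered reads and each sample left out. With 1 sample left in a group, that sample is assumed to vary like the other group. Full values are given for up to 8 called carriers in each direction, by size of change, the 3 most abundant carriers and the tested members of the paralog classes, and in each other list for up to 2 called genes in each direction; other carriers and list genes are named with fewer values. One tested carrier and one marker enter the counts but are not reported here. The members and lists were chosen with earlier results of these data known. Positions and exons are from GENCODE release 44 lifted to GRCh37, the build of hg19. Promoter sequences are from RefSeq (GRCh38.p14).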

Additional observations from a re-analysis of the deposited data

How the results depend on the processing

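Across the alternatives, the crossed block aside, the count of carriers that fell stayed within 1.5 times of 13, and 14 of the 19 called carriers passed under each alternative that gave them a value. The other 5 were SLC25A3, SLC25A5, SLC25A16, SLC25A38 and SLC25A43. All alternatives reuse the same samples or a part of them, so that passing under each is no independent support. Fits with a sample left out gave SLC25A13 and SLC25A15 smaller adjusted p-values than the full fit did. At a minimum mean of 5 RPKM, which leaves 25 carriers, 3 rose against 6, beside 1868 of all 7859 genes tested there. SLC25A17 then passed as lower (limma adjusted p = 0.0463), as it did with quantile normalization (0.0369). When samples were scaled to an equal summed RPKM 8 rose, SLC25A25 and SLC25A44 among them, and 12 fell. Over all tested genes that setting gave 2122 lower and 3279 higher, against 2599 and 2890 in the main fit. With a sample left out in turn, calls rest on a single sample in a group. Their number is not read as a result about the carriers. SLC25A30 had -0.92 with a pseudocount of 0.1 and -1.004 with limma voom, beyond SLC25A15 at -0.86 and -0.87. The median log2 fold change of the tested carriers was -0.20. It was -0.21 with a pseudocount of 0.1, -0.0375 without a filter on low values (46 carriers), -0.25 at a minimum mean of 5 RPKM, -0.15 with each sample rescaled to the same summed RPKM, -0.21 with quantile normalization, -0.22 with limma voom on recovered reads and -0.19 to -0.17 with a sample left out. The median over all genes tested was 0.03 in the main fit and 0.08 with each sample rescaled to the same summed RPKM. It was 0.01 without a filter, -0.01 at a minimum mean of 5 RPKM and -4.3e-05 with quantile normalization. Beyond the change in genes, samples or scale that some alternatives make, the causes were not tested.

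Leaving out a sample gave SLC25A40 from -0.463 to 0.0267 and SLC25A28 from -0.00866 to 0.0508, both changes of sign in carriers that did not pass with all 4 samples. With quantile normalization the difference in share, MYCN KD minus Ctrl, was 0.255 percentage points for SLC25A4, -2.87 for SLC25A13, -10.99 for SLC25A37 and -0.00518 for SLC25A22, against 0.522, -3.63, -10.6 and -0.380. The other shares moved by less than the spread between replicates.

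With the replicate block 10 carriers fell and 6 rose. Over all tested genes 1851 fell and 2077 rose with this block, against 2599 and 2890 in the main fit. SLC25A3, SLC25A5 and SLC25A38 lost the threshold (limma adjusted p of 0.179, 0.0665 and 0.182). Deviations from the group mean in same-numbered samples correlated at -0.985 between groups over the 11411 tested genes. The spreads of the 2 groups thus ran along a common pattern, whereas the limma fit takes samples as independent. How the samples were paired cannot be read from this value and was not tested. A crossed replicate block, chosen after seeing the data, gave 22 lower and 12 higher of 34 carriers. It also called 5262 lower and 5910 higher of all 11411 tested genes. Its counts are therefore not read as a result about the carriers. With 2 samples a group, no single carrier can be tested by permutation below 0.3333, and reads under 3 in a sample give no level.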
